A study of Mus musculus with 12 samples.

Results

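The 6 genes described here are Thrb, Rxrg, Neurod1, Sall3, Casz1 and Rora, transcription factors that set cone identity or the timing of photoreceptor production. They were taken by symbol from the 40202 genes of the expression table, and each matched 1 entry. The study sequenced retinal RNA from C57BL/6J mice as 12 libraries, 3 in each of 4 groups. WT mice and mice with choroidal neovascularisation after a laser (CNV) were injected into the vitreous with 0.5X PBS as vehicle or with cp-asiNRL, an asymmetric interfering RNA that enters cells and targets Nrl, as 1 µl of 6 µg/µl. The labels name no transgene or Cre line, and they give neither the age of the mice, the number of animals per library nor the time after injection, so the spread behind each p-value is that between libraries and may be technical. The tissue is whole retina, in which fewer cells of a type and less RNA per cell cannot be told apart.

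Nrl directs photoreceptor precursors to the rod fate, and precursors without it become cones. Among the genes described, Thrb encodes thyroid hormone receptor beta, whose retinal isoform is needed for cones that express the medium-wavelength opsin, and Rxrg encodes a retinoid X receptor that acts with it. Neurod1 is a basic helix-loop-helix factor that sustains Thrb expression in cones and the survival of photoreceptors. Sall3 is a zinc finger factor needed for short-wavelength opsin and for horizontal cells. Casz1 is a zinc finger factor that follows Ikzf1 in the temporal order of retinal progenitors and favours rods, and Rora encodes a nuclear receptor that activates opsin genes in cones.

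RefSeq promoter windows, from 250 bases before a start to 50 after it, were matched by symbol for 5 genes, Thrb, Rxrg, Neurod1, Casz1 and Rora (build GRCm38.p6). They were searched on both strands for TAATCC, the core bound by the photoreceptor factors CRX and OTX2, for AGGTCA, the core bound by nuclear receptors, and for the E-box CANNTG bound by factors such as Neurod1. Of 32851 windows of this length, 7.06% held TAATCC, 16.3% held AGGTCA and 72.3% held an E-box. Thrb, Casz1 and Rxrg had 2 annotated starts each, and 1 of the 2 windows of Thrb and of Casz1 held both TAATCC and AGGTCA. Those windows are shown because these genes carry the differences described below, and the second Rxrg window because it holds AGGTCA beside 3 E-boxes. The windows are 5′ to 3′ on the gene's strand, at chr14:17660710-17661009 (plus strand) for Thrb, chr4:148889097-148889396 (plus strand) for Casz1 and chr1:167618015-167618314 (plus strand) for Rxrg. These positions are of GRCm38.p6, while gene positions below are of GRCm39, which places Thrb elsewhere on chromosome 14 and on the minus strand. Capitals mark TAATCC and AGGTCA, with TAATCC on the other strand read as GGATTA.
Thrb, upstream start: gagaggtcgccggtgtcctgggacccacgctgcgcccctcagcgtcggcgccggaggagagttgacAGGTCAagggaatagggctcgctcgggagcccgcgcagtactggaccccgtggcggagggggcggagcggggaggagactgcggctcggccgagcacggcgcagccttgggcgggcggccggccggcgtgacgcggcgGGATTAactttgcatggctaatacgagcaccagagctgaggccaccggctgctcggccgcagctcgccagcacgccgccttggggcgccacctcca
Casz1, downstream start: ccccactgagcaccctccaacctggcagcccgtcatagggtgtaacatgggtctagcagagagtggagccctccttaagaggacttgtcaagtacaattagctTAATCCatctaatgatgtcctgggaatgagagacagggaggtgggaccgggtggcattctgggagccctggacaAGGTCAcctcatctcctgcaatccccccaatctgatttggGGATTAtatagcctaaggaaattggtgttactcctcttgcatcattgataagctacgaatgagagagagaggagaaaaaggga
Rxrg, downstream start: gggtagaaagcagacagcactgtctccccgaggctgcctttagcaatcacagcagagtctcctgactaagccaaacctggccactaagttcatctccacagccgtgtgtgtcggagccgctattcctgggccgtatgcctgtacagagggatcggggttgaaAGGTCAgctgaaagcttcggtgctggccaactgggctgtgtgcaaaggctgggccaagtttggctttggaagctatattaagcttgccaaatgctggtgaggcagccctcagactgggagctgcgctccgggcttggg
In the Casz1 window TAATCC begins 147 bases before the start and again, on the other strand, 33 bases before it, with AGGTCA 73 bases before it. In the Thrb window the TAATCC match lies 46 bases before the start on the other strand and AGGTCA 184 bases before it. No TAATCC or AGGTCA was found in the other Thrb, Rxrg and Casz1 windows or in the single windows of Neurod1 and Rora, which says only that these letters are not in those windows.

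Reads in genes totalled 51298466 to 69394486 per library. The deposited values are reads divided by the gene's genomic span, so levels are given below as CPM, the gene's reads scaled to the library total in genes with trimmed-mean factors, and genes are compared with each other only per kb of span. Nrl, the target, was at 540.1 CPM ± 30.7 (SD, n = 3) in WT retina with vehicle, 427.7 ± 36.0 with cp-asiNRL, 465.3 ± 52.3 in CNV retina with vehicle and 356.9 ± 113.6 with cp-asiNRL. The library labelled CNV cp-asiNRL replicate 2 went against its label, with 483.2 CPM of Nrl where replicates 1 and 3 had 324.2 and 263.3. It also stood apart over all genes, with a chi-square per gene of 32.7 and 45.7 against the other libraries of its group, which differed from each other by 9.45. The log2 change of Nrl in CNV retina was -0.42 (SE 0.16, limma adjusted p = 0.25) with it and -0.66 (SE 0.098, limma adjusted p = 0.000686) without it. The Nrl level of that library was part of what singled it out, so the stronger fall of Nrl without it was built into that choice. Changes for cp-asiNRL in CNV retina, of the 6 genes and of the gene lists around them, are given with and without that library. Differences were tested with limma over 25619 genes in all 12 libraries, and a gene was called at a Benjamini-Hochberg adjusted p below 0.05.

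Per kb of span the 6 genes ranged from 0.133 to 33.7 CPM. Neurod1 was the highest, with a median of 31.6 CPM per kb over the 12 libraries, followed by Rora at 2.88, Thrb at 2.56 and Casz1 at 1.96. Each of these 4 genes was above the next in 12 of 12 libraries, the last of them against Sall3. Sall3 at 0.176 and Rxrg at 0.163 did not separate, since Sall3 was the higher in 9 of 12 libraries. These densities cover introns, and exons of the GENCODE annotation (GRCm38) add up to 68.2% of the span of Neurod1 but 1.94% of that of Thrb and 1.78% of that of Rora.

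None of the 6 genes was called in any of the 5 comparisons by limma. In WT retina 0.141% of all genes tested were called for cp-asiNRL, and in CNV retina 0.0468%. For the laser under vehicle, the laser under cp-asiNRL and the difference between the cp-asiNRL effects in CNV and WT retina, 0% of genes were called. At an unadjusted p below 0.05 the members counted were 0 for cp-asiNRL in WT retina, 2 in CNV retina, 0 for the laser under vehicle, 1 for the laser under cp-asiNRL and 1 for the difference. Over all genes these counts were 3929, 4114, 1965, 4407 and 1591. Limma voom on the recovered reads also called none of the 6. Of all 25619 genes it called only 3 for cp-asiNRL in WT retina, 13 in CNV retina and 0 in the other comparisons. Voom with sample quality weights called 3 in CNV retina, among 11.4% of all genes, and 2 for the laser under cp-asiNRL, among 17.2%.

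**Figure D1:**
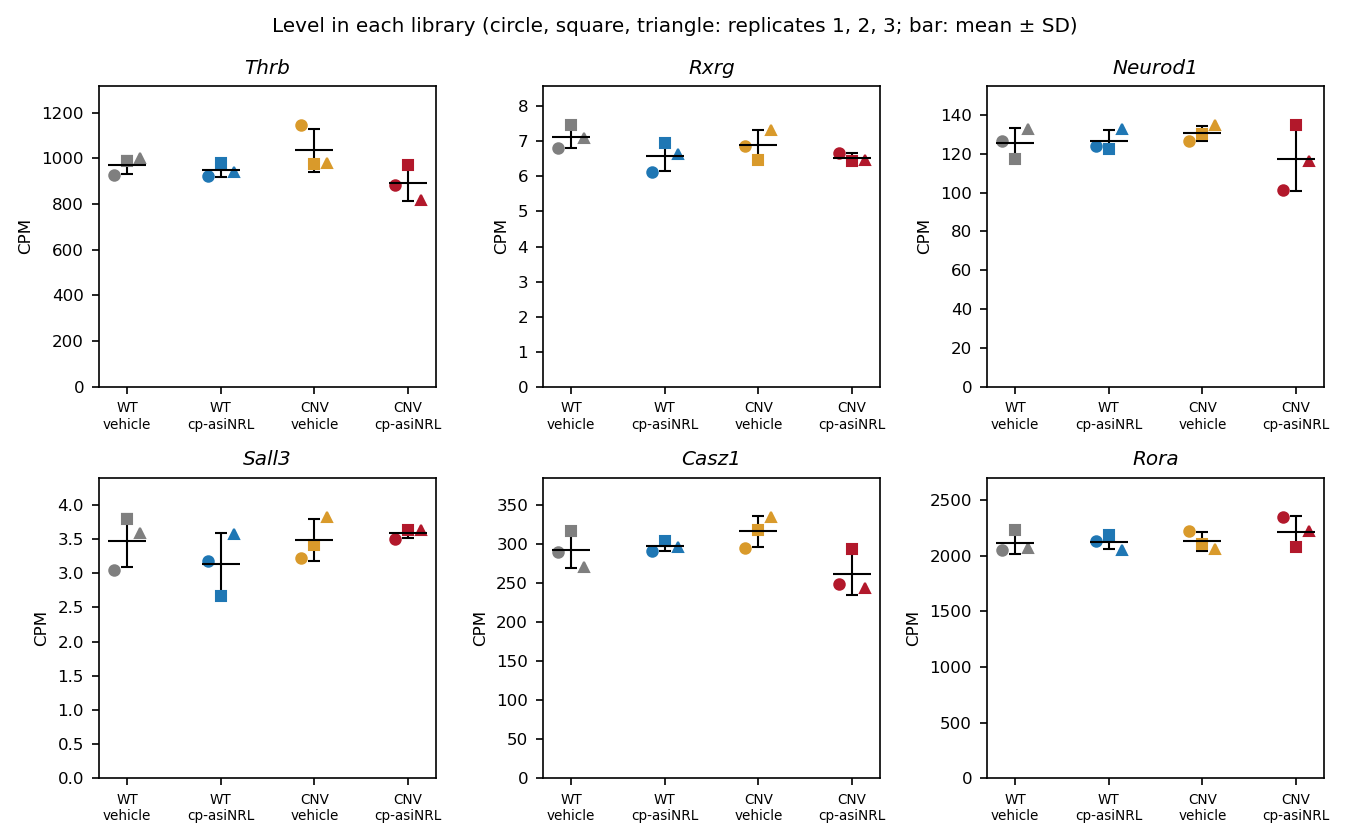
CPM of each gene (vertical axes, from 0) in the 12 libraries by group, with points for replicates 1 to 3 and a bar for the mean with its SD. Casz1 in CNV retina lay at 295.6 to 335.5 CPM with vehicle and at 243.6 to 293.6 with cp-asiNRL, and Rora stayed between 2047.6 and 2349.2 in all libraries.

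Thrb (chromosome 14, 4429599 to 4810538, minus strand, GRCm39) had 47939 to 69177 reads per library. Its levels in WT retina were 926.3, 987.9 and 1000.2 CPM with vehicle and 923.2, 979.9 and 938.9 with cp-asiNRL, so the groups overlapped. In CNV retina they were 1145.5, 977.9 and 982.0 CPM with vehicle and 885.3, 970.1 and 818.4 with cp-asiNRL. Every treated CNV library lay below every vehicle library, by a narrow gap between 970.1 and 977.9. The log2 change for cp-asiNRL was -0.036 (SE 0.081) in WT retina and -0.22 (SE 0.081, limma adjusted p = 0.252) in CNV retina. The laser gave 0.088 (SE 0.081) under vehicle and -0.091 (SE 0.081) under cp-asiNRL. Counts cover the whole gene, so the isoforms of the receptor, which start at different promoters, were not separated. One gene model on the opposite strand, LOC115488350, overlaps Thrb, and the reads listed for it equal 1.42% of those of Thrb.

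Thrb and Casz1 were the 2 members whose treated CNV libraries all lay below the vehicle libraries, as did 6.73% of all genes tested. No member had all of its treated CNV libraries above.

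Rxrg (chromosome 1, 167425931 to 167467192, GRCm39, plus strand, free of overlapping genes), the partner receptor, had only 338 to 462 reads per library, so that counting alone gives an error of 4.65% to 5.44%. Its levels were 6.82, 7.46 and 7.10 CPM in WT retina with vehicle and 6.12, 6.96 and 6.63 with cp-asiNRL. In CNV retina they were 6.85, 6.46 and 7.33 CPM with vehicle and 6.67, 6.43 and 6.47 with cp-asiNRL. The groups overlapped in each of these comparisons and in both laser comparisons. The log2 change for cp-asiNRL was -0.10 in WT retina (95% interval -0.26 to 0.057) and -0.066 in CNV retina (-0.23 to 0.094). A rise in Rxrg of more than 0.094 on the log2(CPM + 1) scale thus lay outside both intervals of the fit of 12 libraries. Without CNV cp-asiNRL replicate 2 the interval in CNV retina reached further, from -0.24 to 0.12.

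Sall3 (chromosome 18, 81010204 to 81030236, GRCm39, minus strand, free of overlapping genes), the factor of short-wavelength cones and horizontal cells, was the most thinly covered, with 155 to 251 reads per library and a counting error of 6.31% to 8.03%. It was at 3.05, 3.79 and 3.59 CPM in WT retina with vehicle and 3.18, 2.66 and 3.57 with cp-asiNRL. In CNV retina it was at 3.23, 3.41 and 3.83 CPM with vehicle and 3.50, 3.63 and 3.63 with cp-asiNRL. All groups overlapped, and the largest difference was a log2 change of 0.15 (SE 0.099, limma adjusted p = 0.426) for the laser under cp-asiNRL, with a 95% interval from -0.058 to 0.37.

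Neurod1 (chromosome 2, 79282981 to 79286980, GRCm39, minus strand, free of overlapping genes) had 6113 to 9213 reads per library. In WT retina it was at 126.4, 117.2 and 132.7 CPM with vehicle and 123.9, 122.4 and 132.8 with cp-asiNRL. In CNV retina it was at 126.8, 130.2 and 134.6 CPM with vehicle and 101.4, 134.7 and 116.4 with cp-asiNRL. The treated CNV group therefore overlapped the vehicle group through replicate 2 alone, the highest of all 12 libraries. The log2 change was 0.012 (SE 0.081) in WT retina and -0.16 (SE 0.081, limma adjusted p = 0.342) in CNV retina.

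Casz1 (chromosome 4, 148888823 to 149039350, plus strand, GRCm39) had 15021 to 22560 reads per library. In WT retina it was at 290.7, 317.2 and 271.6 CPM with vehicle and 291.8, 304.2 and 297.1 with cp-asiNRL. In CNV retina it was at 295.6, 318.9 and 335.5 CPM with vehicle and 249.2, 293.6 and 243.6 with cp-asiNRL. The treated CNV libraries were all below the vehicle libraries, with replicate 2 just short of the lowest of them. Its log2 change was 0.025 (SE 0.076) in WT retina and -0.27 (SE 0.076, limma adjusted p = 0.210) in CNV retina, the largest of the 6 genes. The difference between these effects was -0.30 (SE 0.11, limma adjusted p = 0.788). The laser gave 0.11 (SE 0.076, adjusted p = 0.721) under vehicle and -0.19 (SE 0.076, adjusted p = 0.245) under cp-asiNRL, and both of these pairs of groups overlapped. Casz1 shares bases with 3 gene models on the opposite strand whose listed reads equal 9.97% of its own.

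Rora (chromosome 9, 68560627 to 69295528, plus strand, GRCm39) is the longest of the 6 genes, with a span of 734902 bases and 105968 to 153700 reads per library. It was at 2047.6, 2228.3 and 2071.8 CPM in WT retina with vehicle and 2130.4, 2185.5 and 2052.9 with cp-asiNRL. In CNV retina it was at 2218.9, 2107.7 and 2055.7 CPM with vehicle and 2349.2, 2075.6 and 2223.4 with cp-asiNRL. All groups overlapped, and the log2 change for cp-asiNRL was 0.0053 (95% interval -0.17 to 0.18) in WT retina and 0.058 (-0.12 to 0.23) in CNV retina. Rora overlaps 7 gene models, 3 of them on its own strand, whose listed reads equal 22.9% of its own, so its level is uncertain by that share. Whether a read in an overlap came from 1 gene or the other cannot be told apart in these values.

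With that second treated CNV library left out, Casz1, Neurod1 and Thrb fell with cp-asiNRL in CNV retina. The library was singled out from these same data. It was the highest of its group for each of these genes, so leaving it out lowers their group means. Without that library the log2 change of Casz1 was -0.36 (SE 0.067, limma adjusted p = 0.00274) and that of Neurod1 -0.26 (SE 0.066, limma adjusted p = 0.0134). That of Thrb was -0.28 (SE 0.079, limma adjusted p = 0.0244). Rxrg at -0.057 (SE 0.086), Sall3 at 0.027 (SE 0.11) and Rora at 0.10 (SE 0.083) were not called. In this fit 17.5% of all 25560 genes tested were called in CNV retina, against 12 genes in the fit of 12 libraries. For the laser under cp-asiNRL, Casz1 fell by 0.27 (SE 0.067, limma adjusted p = 0.0115) and Neurod1 by 0.22 (SE 0.066, limma adjusted p = 0.0328), among 17.9% of genes called. No member was called for cp-asiNRL in WT retina (3.02% of genes), for the laser under vehicle (0.29%) or for the difference of the 2 cp-asiNRL effects (0.0469%), where the adjusted p of Casz1 was 0.0978. Leaving out any other single library called no member in any comparison. In a fit of the 6 WT libraries alone, 9.23% of genes were called and none of the 6, with Casz1 at 0.015 (95% interval -0.091 to 0.12), Thrb at -0.046 (-0.15 to 0.054) and Neurod1 at 0.0019 (-0.099 to 0.10).

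**Figure D2:**
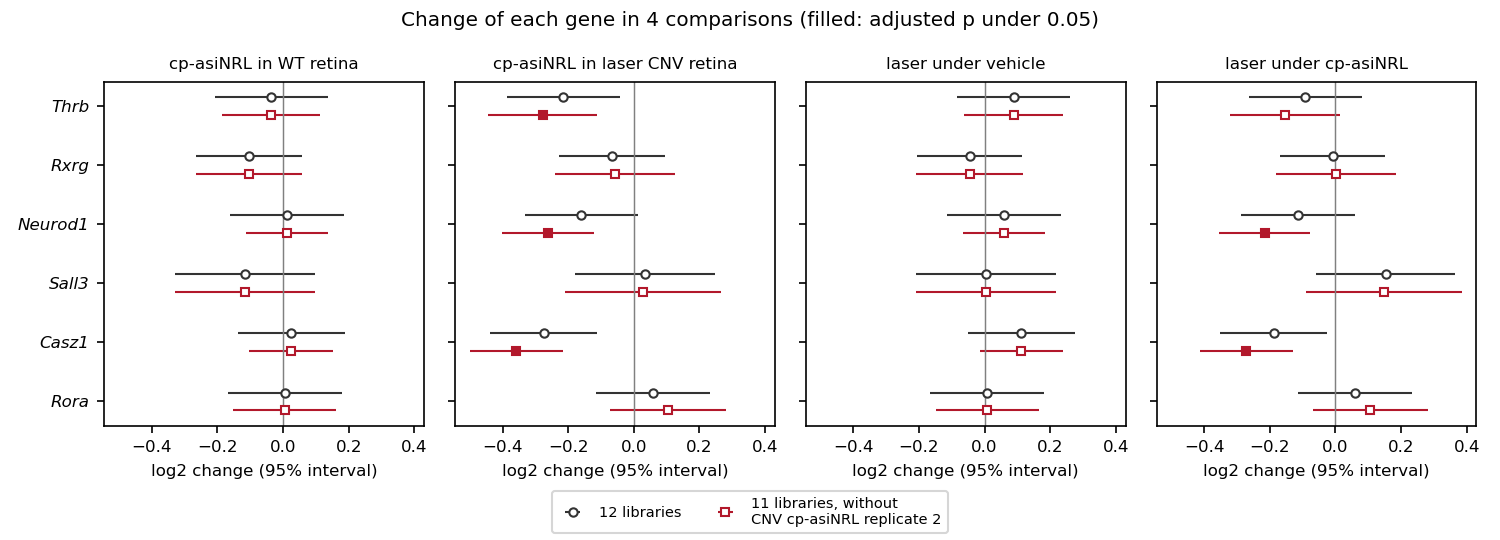
Log2 change of each gene (horizontal axes) with its 95% interval in 4 comparisons, in the fit of 12 libraries (circles) and with CNV cp-asiNRL replicate 2 left out (squares). Filled symbols mark an adjusted p below 0.05, which Casz1, Neurod1 and Thrb reach in CNV retina and Casz1 and Neurod1 for the laser under cp-asiNRL, only without that library.

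Inside the treated CNV group, markers of other cells differed between the same libraries. The summed level of the 10 rod markers was 13304 and 11330 CPM in replicates 1 and 3 and 19925 in replicate 2, against 16138 to 19619 in CNV retina with vehicle and 19116 to 21533 in WT retina with vehicle. The 8 markers of reactive glia summed to 314.3 and 407.9 CPM in replicates 1 and 3 and 177.2 in replicate 2. In CNV vehicle replicates 1 to 3 they summed to 145.9, 320.8 and 162.5 CPM. The 10 microglia markers summed to 132.9 and 147.3 CPM in replicates 1 and 3 and 75.2 in replicate 2, against 70.2 to 114.5 in CNV retina with vehicle. In WT retina they summed to 56.6 to 60.1 CPM with vehicle and 61.0 to 93.9 with cp-asiNRL. Of the CNV vehicle libraries, replicate 2 had the highest reactive glia and microglia sums and the lowest rod sum and Nrl level (422.7 CPM). The 8 cone markers, at 624.2 and 624.9 CPM in replicates 1 and 3 and 729.3 in replicate 2, overlapped the 615.8 to 771.2 CPM of the vehicle group. In WT retina the cone sums did not overlap, at 765.5 to 789.6 CPM with vehicle and 622.2 to 711.0 with cp-asiNRL. Of the 8 cone markers 6 had all treated WT libraries below the vehicle libraries, as did 4054 of all 25619 genes tested. All markers of these 4 lists had reads in every library and none was at 0. The part of these shifts in the levels of Casz1, Neurod1 and Thrb was not tested.

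The genes around the members were counted from 8 lists. Of the 15 genes of thyroid hormone and retinoid X signalling, none was called in either cp-asiNRL comparison, with a median log2 change of 0.029 in WT retina and -0.061 in CNV retina beside 0.0015 and 0.0013 over all genes tested. Thra, the other thyroid hormone receptor, was at -0.15 (SE 0.061, limma adjusted p = 0.260) in WT retina, and Rxra, a second retinoid X receptor, at -0.26 (SE 0.079, limma adjusted p = 0.231) in CNV retina. None of the 13 cone genes was called, and 11 of 13 were below 0 in WT retina (median -0.16) and 9 of 13 in CNV retina (median -0.060). Leaving out CNV cp-asiNRL replicate 2 moved the CNV median of the cone genes to -0.14, and leaving out CNV vehicle replicate 3 moved it to -0.010. Among the cone genes in WT retina the smallest p belonged to Pde6h, at -0.38 (SE 0.077, limma adjusted p = 0.0675). Gngt2 came next, at -0.40 (SE 0.092, limma adjusted p = 0.0898). Opn1sw, the short-wavelength opsin, followed at -0.39 (SE 0.11, limma adjusted p = 0.121). Opn1mw, the medium-wavelength opsin, was at 0.10 (SE 0.080) there, a gene outside the naming rule and given for comparison.

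The 12 rod and shared photoreceptor factors include Nrl, the target itself. In CNV retina 12 of 12 lay below 0, with a median of -0.29, and in WT retina 10 of 12, with a median of -0.18. Leaving out CNV cp-asiNRL replicate 2 gave a CNV median of -0.44, and leaving out replicate 3 of that group gave -0.19. One fell, Samd7, a partner of Polycomb in rods, from 83.9 CPM ± 0.813 (SD, n = 3) with vehicle to 60.7 ± 7.93 with cp-asiNRL in CNV retina (log2 change -0.47, SE 0.071, limma adjusted p = 0.0337). Leaving out any 1 library other than CNV cp-asiNRL replicate 2 ended this call, with adjusted p from 0.0513 to 0.196. Otx2, which acts upstream of photoreceptor genes, was at -0.23 (SE 0.07, limma adjusted p = 0.229) there and Pias3, a SUMO ligase that acts with Nr2e3 in rods, at -0.38 (SE 0.07, adjusted p = 0.131). Of the timing factors, 10 of 10 lay above 0 in WT retina (median 0.098) and 8 of 10 in CNV retina (median 0.091), with none called. In settings other than single libraries left out, these medians ran from 0.029 to 0.11 and from 0.051 to 0.14. Ikzf1, which precedes Casz1 in progenitors and is also a gene of immune cells, was at 0.825 CPM ± 0.115 and 1.503 ± 0.522 in WT retina with vehicle and cp-asiNRL and at 2.32 ± 1.45 and 3.97 ± 2.26 in CNV retina (SD, n = 3 each), beside the microglia sums above.

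Of the 13 tested genes of ROR and REV-ERB receptors with clock genes, 1 rose in CNV retina. Dbp, a clock output factor, went from 42.0 CPM ± 3.42 (SD, n = 3) to 57.8 ± 4.35 with cp-asiNRL (log2 change 0.45, SE 0.073, limma adjusted p = 0.0394), and in WT retina it was at 47.5 ± 2.95 and 47.4 ± 2.73. Leaving out any 1 library other than CNV cp-asiNRL replicates 1 and 2 ended this call, with adjusted p from 0.0655 to 0.244. None of the 16 chromatin partners of Casz1 was called (medians 0.019 in WT and -0.010 in CNV retina), with Rbbp4, a histone-binding subunit, at -0.17 (SE 0.05, limma adjusted p = 0.218) in CNV retina. None of the 9 tested genes of 13 early cone and horizontal precursor factors was called (medians 0.032 and -0.011), nor any of the 5 tested of 6 family members (medians -0.055 and -0.035). Sall2, a relative of Sall3, was at -0.53 (SE 0.19, limma adjusted p = 0.198) in WT retina. For the laser under vehicle, for the laser under cp-asiNRL and for the difference, no gene of the 8 lists was called in the fit of 12 libraries. Without CNV cp-asiNRL replicate 2, 9 of 12 rod and shared factors, Nrl among them, fell for the laser under cp-asiNRL and none rose. Of the chromatin partners 6 of 16 fell and 1 rose, and of the cone genes 4 of 13 fell and 2 rose. Of the timing factors 4 of 10 rose and none fell. Over all 25560 genes 2536 rose and 2035 fell in that comparison.

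With CNV cp-asiNRL replicate 2 left out, 9 of the 12 rod and shared factors and 5 of the 13 cone genes fell with cp-asiNRL in CNV retina. None of either list rose. Nrl is counted among these 9 factors, and its stronger fall without that library was built into the choice of the library. In WT retina 4 of the 13 cone genes and 2 of the 12 rod and shared factors, Nrl among them, fell in that fit. Over all 25560 genes 597 fell and 176 rose in WT retina. In CNV retina 4 of the 10 timing factors rose and none fell (median 0.11). In thyroid hormone and retinoid X signalling 3 of 15 genes rose and 2 fell (median -0.096), and among the chromatin partners of Casz1 1 of 16 rose and 3 fell (median -0.029). Among ROR and REV-ERB receptors with clock genes 2 of 13 rose and 2 fell (median -0.010), while 1 of 9 early cone and horizontal precursor factors and 1 of 5 family members rose and none fell (medians 0.027 and 0.040). Over all 25560 genes of this fit 2268 rose and 2213 fell in CNV retina, with a median of -0.0015.

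**Figure D3:**
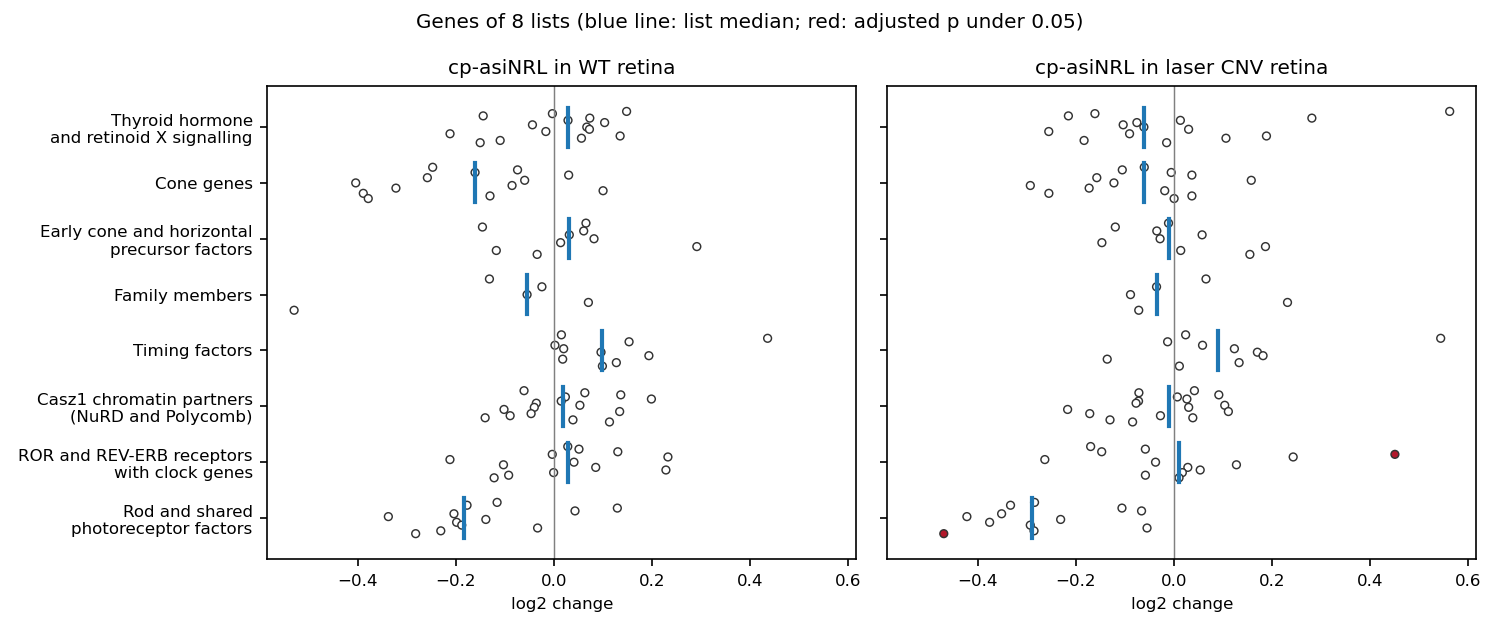
Log2 change with cp-asiNRL (horizontal axes) of every tested gene in 8 lists, in WT retina (left) and CNV retina (right), with a line at each list's median. Red points, adjusted p below 0.05, are Samd7 and Dbp in CNV retina. The rod and shared factors, Nrl included, have the lowest medians, -0.18 and -0.29.

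The genes most like each member over the 12 libraries were taken as the 3 with the highest Pearson r of log2(CPM + 1) among 11368 or 11369 named genes with at least 5 CPM, as a description. Thrb went with Klf12 (r = 0.97), Grm8 (0.95) and Wdpcp (0.95), and Rora with Gfra1 (0.97), Auts2 (0.97) and Dscam (0.97), genes that span 220.4 to 1105.9 kb. Neurod1 went with Cycs (r = 0.93), Tmem60 (0.93) and Thap12 (0.93), of 4.01 to 15.02 kb. Casz1 went with Ntng2 (r = 0.94), Tbc1d30 (0.94) and Pwwp2b (0.94), Rxrg with Gid4 (0.89), Kif22 (0.87) and Malat1 (0.86), and Sall3 with Mob3a (0.85), Atp6v1g2 (0.82) and Zfp385c (0.80). The points share library, depth and scaling. Genes of over 300 kb had a median log2 change of 0.076 for cp-asiNRL in both retinas, and genes of 1 to 10 kb had -0.14 in WT and -0.084 in CNV retina.

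Neurod1 and Rora ran in opposite directions over the 12 libraries, the 1 pair of 15 member pairs that passed by Pearson's r and not by Spearman's rho. Pearson's r was -0.90 (permutation p = 0.00016, adjusted over 15 pairs 0.0024) and Spearman's rho -0.76 (permutation p = 0.0057, adjusted 0.0855). Without the 2 libraries farthest from the median of Neurod1, r was -0.78, and within groups it was -0.91. Neurod1 spans 4000 bases and Rora 734902. With a trend of each library on gene span removed, a setting chosen after seeing the data, r was -0.27 (permutation p = 0.378, adjusted 0.630).

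**Figure D4:**
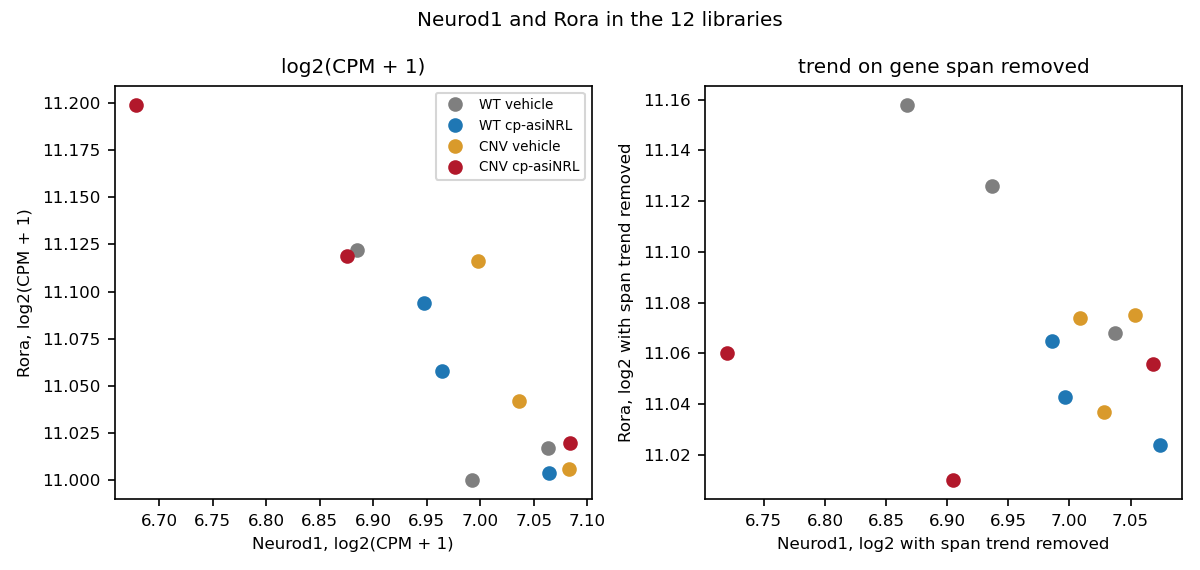
Neurod1 (horizontal axes) against Rora (vertical axes), 1 point per library coloured by group, as log2(CPM + 1) on the left and with the trend on gene span removed on the right. The opposite run of the left panel (r = -0.90) is weaker on the right (r = -0.27).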

How the data were processed

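The authors deposited a signal under the heading FPKM. Multiplied by gene length, it gave whole reads within 1e-06 for all 482424 values, so the deposited signal is reads per base of genomic span with no scaling to depth. The submitters' processing notes name HISAT2 2.1.0, featureCounts 1.6.0 and mm10, while the coordinates in the table are those of GRCm39. Whether counting used the strand is not given in the sources used here.

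Reads were recovered as signal times length and turned into CPM with factors from trimmed means (30% and 5% trimmed). Genes with a CPM worth 10 reads at the median library in at least 3 libraries, and 15 reads in total, were kept (25619, all 6 members among them). The test was limma 3.58.1 with a trend (R 4.3.3) on log2(CPM + 1), in a model of 4 group means, so that changes of low genes are understated. The values are a density, not counts as deposited, so no negative binomial count test was run, and voom in limma, applied to the recovered reads, served as the alternative. The pipeline was tested on simulated data. Pairs of libraries within a group had a chi-square per gene of 3.97 to 45.7, so none were duplicates.

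The members, the 8 gene lists and the 12 marker lists were chosen with earlier results of these data known. Named genes are the members, Nrl, list genes called, and up to 3 per list with the smallest p, of which not all are printed. Alternatives covered scaling, filter, pseudocount (0.25 and 4), voom, quality weights, libraries in the fit, the replicate block, the trend on gene span and each library left out. The correlations used 100000 resamples. Amino acid sequences were not used here.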

Additional observations from a re-analysis of the deposited data

How the results depend on the processing

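No member was called under the replicate block (0 members in each of the 5 comparisons). That setting called few genes at all, 1 for cp-asiNRL in WT retina, 4 in CNV retina and 0 in the other comparisons. Correlations of same-numbered deviations ran from -0.52 to 0.40. Libraries with different numbers were not correlated, so whether a number marks a shared animal or batch was not settled. The number of members called in CNV retina was 3 with voom and quality weights, a setting that called 2917 genes there against 12 in the fit of 12 libraries, and 0 to 3 over single libraries left out. For the laser under cp-asiNRL it was 2 (4405 genes against 0) and 0 to 2. It was 0 in all other settings. The following log2 changes, none of them called in the fit of 12 libraries, turned direction, and the cause was not tested. With library totals alone, Rxrg for the laser under cp-asiNRL was 0.032. With voom and quality weights, Sall3 for cp-asiNRL in CNV retina and Rora for the laser under vehicle were -0.011 and -0.012. With the trend on gene span removed, Casz1 was -0.030 and Rora -0.073 for cp-asiNRL in WT retina, and Rora was -0.020 in CNV retina, -0.055 for the laser under vehicle and -0.0022 for the laser under cp-asiNRL. With only the libraries compared, Rora in WT retina was -0.0046. Thrb in WT retina kept its direction, but with the trend on gene span removed its groups no longer overlapped. On the log2 scale it was then at 9.96, 9.98 and 10.02 with vehicle and 9.84, 9.91 and 9.90 with cp-asiNRL. The share of all genes without overlap in that setting was not counted.

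Over single libraries left out, log2 changes for cp-asiNRL in WT retina ran from -0.016 to 0.044 for Rora, from -0.035 to 0.053 for Neurod1 and from -0.029 to 0.084 for Casz1, and in CNV retina from -0.0079 to 0.087 for Sall3. For the laser under vehicle they ran from -0.023 to 0.047 for Rora and from -0.063 to 0.056 for Sall3, for the laser under cp-asiNRL from -0.051 to 0.029 for Rxrg, and for the difference from -0.0064 to 0.078 for Rxrg. In CNV retina Casz1 ran from -0.36 to -0.23, Thrb from -0.28 to -0.14 and Neurod1 from -0.26 to -0.059. Outside single libraries left out, the call of Samd7 was lost without the filter (adjusted p = 0.151) and with only the libraries compared (0.513). That of Dbp was lost in both as well (0.172 and 0.513), with library totals alone (0.0891), with a pseudocount of 4 (0.0518) and with the replicate block (0.114). Of the list medians, 67 values moved by more than their spread and 805 did not. Other scalings moved the median of all genes by at most 0.036. Counting alone gives Rxrg an error of 4.65% to 5.44% and Sall3 one of 6.31% to 8.03% per library.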
